A study of Xenopus laevis with 14 samples.

Results

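The arrays measured ptf1a and 3 genes linked to it in inhibitory neurons, kirrel2, lhx1 and slc32a1, which are 4 of the 9715 gene symbols on the platform and 6 of its 24218 probe sets. They were chosen by gene symbol, ignoring the suffixes .L and .S, which tell apart the long and short chromosome copies of a Xenopus laevis gene. The platform annotation gave 1 probe set each to ptf1a, kirrel2.L and slc32a1.S and 3 to lhx1.L, and all 6 had a value on every one of the 14 arrays. The RefSeq gene table of assembly Xenopus_laevis_v10.1 also lists kirrel2.S and lhx1.S, and whether a probe set reads only the copy it is named for was not tested.

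Ptf1a is a basic helix-loop-helix transcription factor that binds DNA together with an E protein, such as the products of tcf3 and tcf12, and with Rbpj or its relative Rbpjl. It is required to form the exocrine pancreas, and in the dorsal spinal cord, cerebellum and retina it directs precursors to become neurons that use GABA or glycine, at the expense of glutamate neurons. In the mouse nervous system, genes that follow Ptf1a include Kirrel2, an adhesion protein of the immunoglobulin superfamily, and Lhx1, a LIM homeodomain factor of developing inhibitory neurons. Slc32a1 is the transporter that loads GABA and glycine into synaptic vesicles. RNA levels were measured here, not binding of Ptf1a to any gene.

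RNA came from anterior endoderm, the tissue that forms pancreas, liver and the front of the gut, cut out of Xenopus laevis embryos that had received mRNA into dorsal vegetal blastomeres at the 8-cell stage. GFP embryos had 400 pg of GFP mRNA, and Ptf1a embryos had 400 pg of GFP mRNA and 800 pg of Ptf1a mRNA, so the mass of injected mRNA differed between the groups as well. At stage NF32 each group had 3 arrays and at NF36 it had 4, each array from about 15 pooled explants, with GFP and Ptf1a explants of an experiment taken from a shared batch of embryos. The questions were which of these genes differed between Ptf1a and GFP explants at each stage, and whether the difference changed from one stage to the other.

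Values are linear array intensities as the authors deposited them, and changes are log2(value + 16), Ptf1a minus GFP, ± SE, from limma fits over all 22855 probe sets of NF32 or all 23614 of NF36. The offset of 16 draws the change of dim probe sets toward 0. Array means were 140.19 to 140.36 at NF32 and 100 at NF36, and between 13.0% and 15.1% of probe sets read below 16 at NF32 against 25.4% to 27.5% at NF36. The stages were scaled apart, so levels were not set against each other between stages. The number of arrays limits the precision, and in pooled tissue fewer cells of a type and less RNA per cell cannot be told apart.

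The ptf1a probe set was among the largest rises at both stages. At NF32 it read 18.3, 14.9 and 7.7 on the GFP arrays and 209.5, 386.0 and 347.1 on the Ptf1a arrays, in order of replicate number. Every Ptf1a array stood above every GFP array, and the probe set moved from between percentiles 2.99 and 18.9 of its array to between 85.8 and 93.0. The means of 13.6 ± 5.41 and 314 ± 92.7 (SD, n = 3 each) differed by 3.45 ± 0.24 on the log2 scale (limma adjusted p = 0.00147), the rise of rank 9 among the 22855 probe sets. Within the 3 numbered pairs the log2 change was 2.72, 3.70 and 3.94.

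At NF36 ptf1a read 25.5, 33.3, 31.5 and 29.8 on the GFP arrays and 117.2, 143.1, 319.4 and 136.4 on the Ptf1a arrays. The groups again did not overlap, and Ptf1a replicate 3 read far above the other three. The probe set lay between percentiles 40.8 and 49.8 on GFP arrays and between 81.0 and 94.0 on Ptf1a arrays. GFP arrays averaged 30.0 ± 3.34 and Ptf1a arrays 179 ± 94.2 (SD, n = 4 each), a rise of 1.98 ± 0.26 (limma adjusted p = 0.00727). Without Ptf1a replicate 3 the rise was 1.69. Leaving out 1 array at a time, the call held in all 6 fits of NF32 and all 8 of NF36. The sources used here do not say if the probe set detects injected ptf1a mRNA as well as endogenous ptf1a RNA.

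**Figure D1:**
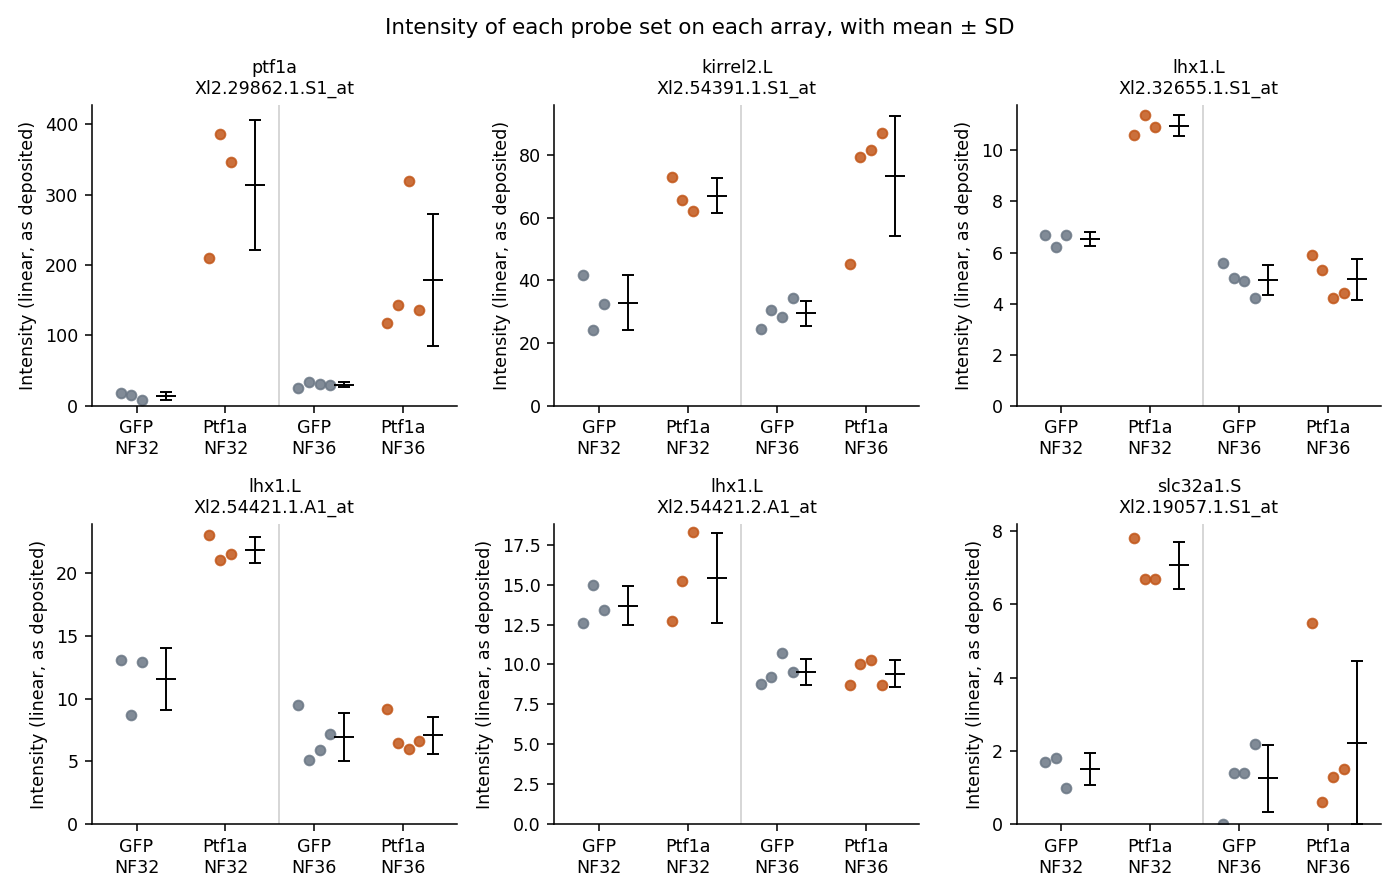
Linear intensity of the 6 probe sets on each array, by group and stage, with the mean ± SD beside the points (n = 3 per group at NF32, n = 4 at NF36). The ptf1a and kirrel2.L groups separate at both stages, whereas the lhx1.L and slc32a1.S groups overlap at NF36. Levels were scaled apart for the 2 stages and each panel has its own axis.

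kirrel2.L, for an adhesion protein, was the other gene to rise at both stages. At NF32 it read 41.8, 24.2 and 32.5 on the GFP arrays and 73.1, 65.8 and 62.2 on the Ptf1a arrays. The lowest Ptf1a array lay above the highest GFP array, and all 3 pairs had a higher Ptf1a value, with log2 changes of 0.62, 1.02 and 0.69. The mean went from 32.8 ± 8.80 to 67.0 ± 5.55 (SD, n = 3 each), a ratio of 2.04 and a log2 change of 0.78 ± 0.14 (limma adjusted p = 0.0326). This call held without GFP replicate 1 and was lost without GFP replicate 2 or 3 or any 1 of the Ptf1a replicates, with limma adjusted p between 0.0769 and 0.0967. The number of probe sets called higher at NF32 also fell, from 449 to between 108 and 328, when 1 array was left out.

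At NF36 kirrel2.L read 24.6, 30.4, 28.4 and 34.4 on the GFP arrays and 45.2, 79.3, 81.8 and 87.2 on the Ptf1a arrays. Ptf1a replicate 1 stood well below the other Ptf1a arrays but still above all GFP arrays. The mean went from 29.5 ± 4.08 to 73.4 ± 19.1 (SD, n = 4 each), a ratio of 2.49 and a log2 change of 0.95 ± 0.16 (limma adjusted p = 0.0168). The NF36 call was lost without GFP replicate 2 or 3 or Ptf1a replicate 2 or 4. The limma adjusted p was then 0.0514 to 0.0544, just above the threshold of 0.05, with changes of 0.87 to 0.96. In both groups this probe set sat in the middle of the intensity range, at percentiles 27.7 to 49.7 on GFP arrays and 57.3 to 74.9 on Ptf1a arrays over both stages.

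The 3 probe sets of lhx1.L differed in their calls at NF32. The brightest in Ptf1a explants, Xl2.54421.1.A1_at, read 13.1, 8.7 and 12.9 on the GFP arrays and 23.0, 21.0 and 21.5 on the Ptf1a arrays, with no overlap. Its mean went from 11.6 ± 2.48 to 21.8 ± 1.04 (SD, n = 3 each), a log2 change of 0.46 ± 0.09 (limma adjusted p = 0.0433). Xl2.32655.1.S1_at read 6.7, 6.2 and 6.7 against 10.6, 11.4 and 10.9, also without overlap. Its log2 change of 0.26 ± 0.06 did not pass (limma adjusted p = 0.0950), and with an offset of 1 in place of 16 it did (0.67, limma adjusted p = 0.0160). Xl2.54421.2.A1_at, whose identifier shares its cluster number with the first, read 12.6, 15.0 and 13.4 against 12.7, 15.2 and 18.3. These groups overlapped, and the log2 change was 0.08 ± 0.09 (95% interval -0.13 to 0.29).

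At NF36 none of the lhx1.L probe sets passed in limma, and none had an unadjusted p under 0.05. Xl2.54421.1.A1_at read 9.5, 5.1, 5.9 and 7.2 on the GFP arrays and 9.2, 6.5, 6.0 and 6.6 on the Ptf1a arrays, which overlapped throughout. Its log2 change was 0.01 ± 0.08 with a 95% interval of -0.17 to 0.19, which lies below its NF32 estimate of 0.46. The other 2 had intervals of -0.12 to 0.13 for Xl2.32655.1.S1_at and -0.13 to 0.12 for Xl2.54421.2.A1_at. The GFP values of all 3 lay low on their arrays, at percentiles 2.43 to 13.1 at NF32 and 4.29 to 16.1 at NF36.

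slc32a1.S, the vesicle transporter of inhibitory neurons, read near the bottom of the intensity range on every array. At NF32 it read 1.7, 1.8 and 1.0 on the GFP arrays and 7.8, 6.7 and 6.7 on the Ptf1a arrays. The groups did not overlap, yet even the Ptf1a values lay between percentiles 0.936 and 1.93 of their arrays. The mean went from 1.5 ± 0.44 to 7.07 ± 0.64 (SD, n = 3 each), a log2 change of 0.40 ± 0.07 (limma adjusted p = 0.0293). With an offset of 1 the change was 1.70 and with an offset of 64 it was 0.12, where it no longer passed (limma adjusted p = 0.156). Quantile normalization also ended the call (0.21, limma adjusted p = 0.223).

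At NF36 slc32a1.S was listed at 0.0, 1.4, 1.4 and 2.2 on the GFP arrays and at 5.5, 0.6, 1.3 and 1.5 on the Ptf1a arrays. Ptf1a replicate 1 alone stood above the GFP arrays, and the other Ptf1a arrays lay within their range. The log2 change was 0.07 ± 0.09 (95% interval -0.13 to 0.28, limma adjusted p = 0.782), and without Ptf1a replicate 1 it was -0.0086. The slc32a1.S call and the lhx1.L call of NF32 were each lost in all 6 fits that left out 1 array, with limma adjusted p of 0.0832 to 0.113 for slc32a1.S and 0.0730 to 0.136 for lhx1.L.

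The 4 genes were chosen with earlier results of these data known, and ptf1a was the injected gene. Their counts therefore carry no test against the shares of all probe sets given here. In all, 4 of the 6 probe sets were called higher at NF32, 1 for each gene, against 1.96% of all probe sets called higher in limma. 5 of the 6 had every Ptf1a array above every GFP array, against 10.7% of all. At NF36, 2 of the 6 were called higher, ptf1a and kirrel2.L, against 3.59% of all. These 2 were also the ones without overlap, against 7.85% of all. None was called lower at either stage, against 1.2% of all probe sets at NF32 and 1.89% at NF36. Fits with the replicate number as a block called 5.03% of all probe sets higher and 4.19% lower at NF32. At NF36 they called 12.6% higher and 10.8% lower. Each of the 6 kept its side of the threshold at both stages. With the block the limma adjusted p was 0.0017 and 0.0019 for ptf1a and 0.00914 and 0.00181 for kirrel2.L, at NF32 and NF36 in turn. At NF32 it was 0.0171 for lhx1.L at Xl2.54421.1.A1_at and 0.0174 for slc32a1.S. The fits that left out 1 array were run without the block. Whether the calls lost in them would hold with the block was not tested.

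The Ptf1a effect did not differ between the stages past the threshold for any of the 6 probe sets without the block, where 0.777% of 22251 probe sets differed in limma. With the block it did for 3 of them, against 5.47% of all. The ptf1a rise was smaller at NF36 by -1.47 ± 0.39 (NF36 minus NF32, 95% interval -2.32 to -0.62, limma adjusted p = 0.126, and 0.0484 with the block). Without Ptf1a replicate 3 of NF36 the ptf1a difference was -1.77 and passed (limma adjusted p = 0.0248). On Ptf1a arrays ptf1a lay at percentiles 85.8 to 93.0 at NF32 and 81.0 to 94.0 at NF36. On GFP arrays it lay at 2.99 to 18.9 and at 40.8 to 49.8. The source of the smaller rise was not tested. For lhx1.L the differences were -0.45 ± 0.12 at Xl2.54421.1.A1_at (limma adjusted p = 0.118, and 0.0137 with the block) and -0.26 ± 0.08 at Xl2.32655.1.S1_at (0.1795, and 0.0449 with the block). That of slc32a1.S was -0.33 ± 0.12 (limma adjusted p = 0.352). It passed in 1 of the 14 fits, that without Ptf1a replicate 1 of NF36 (limma adjusted p = 0.0426, and up to 0.608 in the others). The kirrel2.L effect was 0.17 ± 0.24 larger at NF36, with an interval of -0.34 to 0.68.

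**Figure D2:**
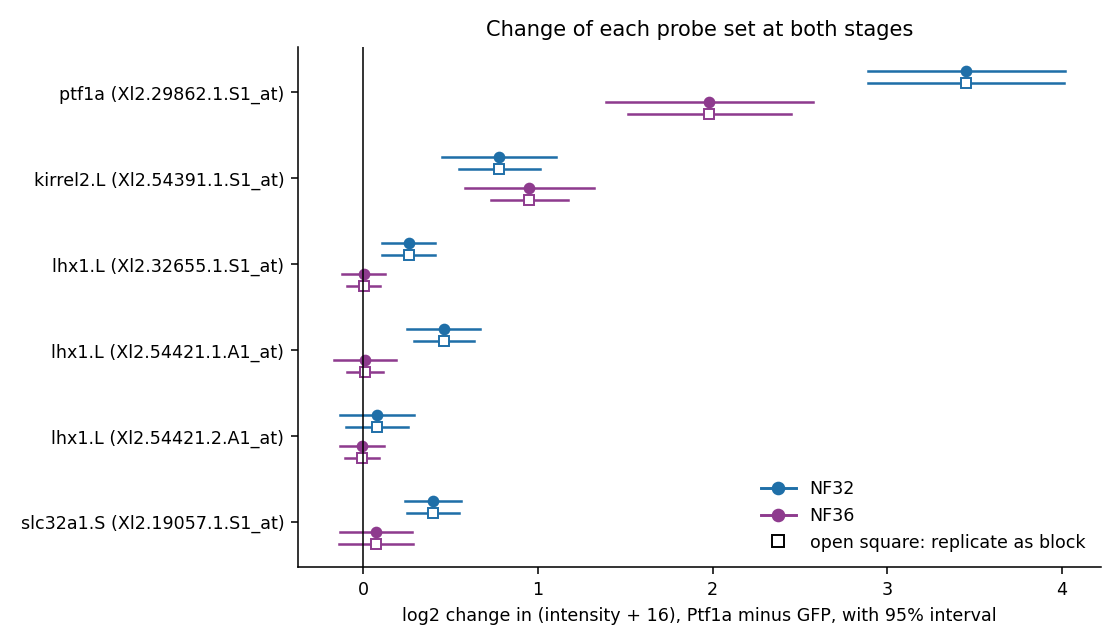
Change of each probe set in log2(intensity + 16), Ptf1a minus GFP, at NF32 (blue) and NF36 (purple), with 95% intervals (filled circles, no block; open squares, replicate as block). The intervals of ptf1a and kirrel2.L lie above 0 at both stages, and those of slc32a1.S and of the lhx1.L probe sets Xl2.54421.1.A1_at and Xl2.32655.1.S1_at lie above 0 at NF32 and span it at NF36.

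The array values most like those of ptf1a belonged mainly to neuronal genes. Likeness was the root mean square difference over the 14 arrays, with each value taken as log2(value + 16) minus the GFP mean of its stage, among 11971 other probe sets with 1 symbol. The nearest were the neuronal filament genes prph.S (0.72) and prph.L (0.82), elavl4.L, whose product binds RNA in neurons (0.85), stmn2.L, which acts in growth cones (0.87), ch25h.L, a cholesterol hydroxylase (0.91), and the collagenase gene mmp1.S (0.96). The nearest, prph.S, changed by 3.16 ± 0.21 at NF32 and by 1.12 ± 0.24 at NF36, against 3.45 and 1.98 for ptf1a. Closest to kirrel2.L were sox9.L, a factor of pancreatic progenitors and of other tissues (0.20), hapln3.S, a matrix link protein (0.21), and the protease inhibitor gene serpine2.L (0.21). sox9.L changed by 0.60 ± 0.08 at NF32 and by 0.84 ± 0.08 at NF36. These distances depend on the size of the change, so a probe set with a large rise lies nearest to others with a large rise. They describe the 14 arrays and carry no test.

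**Figure D3:**
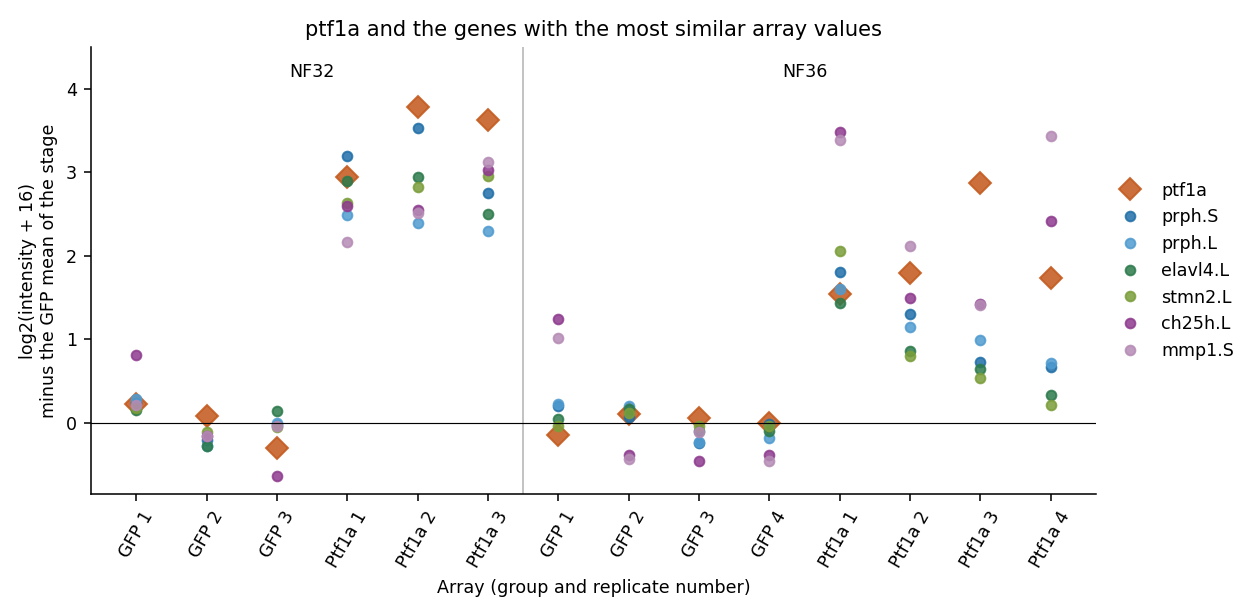
log2(intensity + 16) minus the GFP mean of the stage, on each of the 14 arrays, for ptf1a (diamonds) and the 6 genes with the smallest root mean square difference from it. On the NF36 Ptf1a arrays ptf1a was highest on replicate 3 (2.87), whereas prph.S, prph.L, elavl4.L and stmn2.L were highest on replicate 1.

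Lists of related genes were read against all genes with 1 symbol. The .L and .S copies of a gene were counted as separate genes, in the lists and among all genes alike. At NF32, 2.3% of 9260 genes passed the limma threshold as higher and 1.63% as lower (5.35% and 5.42% with the block), 17.7% had an unadjusted p under 0.05 and 44.6% had a change above 0. At NF36 the shares of 9594 genes were 4.17% and 2.23% (13.4% and 13.1% with the block), 22.4% and 49.4%.

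Most genes on the list of Ptf1a partners and inhibitors had a change above 0. Without the block none passed at NF32 and 1 passed at NF36, and more passed with it. The list held the E protein genes tcf3 and tcf12, rbpj, the Id inhibitors, which bind E proteins and keep them from DNA, and hand1 and hand2, which share E protein partners. At NF32 none of its 13 measured genes passed in limma, 4 had an unadjusted p under 0.05 (17.7% of all genes), 11 had a change above 0 (44.6% of all), and 2 were higher with the block (5.35% of all), id3.S and id2.S. id3.S had the smallest p (1200 ± 95.2 to 1538 ± 105, 0.35 ± 0.09, limma adjusted p = 0.101). At NF36 all 13 had a change above 0 (49.4% of all genes) and 1 passed (4.17% of all), id2.S, which rose from 36.7 ± 2.84 to 57.3 ± 7.77 (0.47 ± 0.09, limma adjusted p = 0.0200), and 5 were higher with the block (13.4% of all). The id2.S call was lost without GFP replicate 1, 3 or 4 or Ptf1a replicate 4. rbpj.S changed by 0.05 ± 0.08 at NF32 and 0.08 ± 0.07 at NF36. The list medians were 0.13 and 0.16, against -0.02 and -0.0017 over all genes with 1 symbol.

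Other transcription factors of inhibitory neurons showed no rise past the threshold at NF32. Of 14 measured, 1 passed and was lower (1.63% of all genes), tal1.S (121.6 ± 19.6 to 53.8 ± 14.8 at its brighter probe set, -0.99 ± 0.17, limma adjusted p = 0.0299), a gene that blood precursors also express. In the list 11 had a change above 0 (44.6% of all genes) and 1 an unadjusted p under 0.05 (17.7% of all), with a median of 0.14. Leaving out 1 array at a time, the tal1.S call at the other probe set held in 1 of 6 fits. Among the list, pax2.L, which acts beside Lhx1 in mouse dorsal horn neurons, read 16.8 ± 3.29 and 20.4 ± 7.29 (0.13 ± 0.15), and lhx5.S 4.47 ± 5.24 and 5.60 ± 2.21. Both were picked for mention with their values known.

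At NF36, 6 of 13 such factors rose (4.17% of all genes), with a list median of 0.37. The 13 were copies of 11 genes, and dlx2 and neurod1 each entered the 6 with both copies. With the block 10 were higher and 1 lower (13.4% and 13.1% of all). gata3.S went from 6.10 ± 0.92 to 15.6 ± 1.97 (0.51 ± 0.07, limma adjusted p = 0.00672), dlx2.L from 19.3 ± 2.67 to 41.0 ± 7.21 (0.69 ± 0.10), dlx2.S by 0.72 ± 0.12 and dlx5.L by 0.77 ± 0.12. The other two were neurod1.S (0.98 ± 0.16) and neurod1.L (0.66 ± 0.13), which endocrine precursors and many neurons express, named after their values were seen. dlx2, dlx5 and gata3 are also genes of ectoderm and its derivatives outside the nervous system, and epidermis markers moved at the same stage. Of 19 such markers 11 rose (4.17% of all genes), 17 with the block (13.4% of all), and 6 without GFP replicate 2 or 3 or Ptf1a replicate 4. Their summed intensity was 2594.3 to 4009.2 on GFP arrays and 6333.3 to 7783.2 on Ptf1a arrays, and their part in these changes was not tested. The count of 6 factors was 3 without GFP replicate 3, 3 without Ptf1a replicate 4, and 1 of the 4 factors that the filter on dim probe sets left measured.

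Genes that make, carry or receive the inhibitory transmitters were mostly dim. At NF32 none of 7 measured passed in limma, 5 had an unadjusted p under 0.05 (17.7% of all genes), all 7 had a change above 0 (44.6% of all), and 3 were higher with the block (5.35% of all). The GABA-degrading enzyme gene abat.S had the smallest p (10.7 ± 1.82 to 20.6 ± 2.80, 0.45 ± 0.09, limma adjusted p = 0.0509, and 0.0202 with the block). The GABA synthesis gene gad1.1.L, named after its values were seen, read 0.53 ± 0.61 and 5.17 ± 2.36 (0.35 ± 0.10, limma adjusted p = 0.132, and 0.0403 with the block). At NF36 2 of 8 rose (4.17% of all genes), both copies of abat, with abat.L at 13.8 ± 1.62 and 27.1 ± 1.52 (0.53 ± 0.06, limma adjusted p = 0.00551) and abat.S at 14.8 ± 3.26 and 31.8 ± 6.74 (0.63 ± 0.12). abat also acts in tissues outside the nervous system. Without GFP replicate 2, 3 or 4 or Ptf1a replicate 2 or 4 the list had 1 call. gad1.1.L then read 0.60 ± 0.59 and 0.88 ± 1.14.

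Factors of excitatory neurons, which Ptf1a opposes in the spinal cord, showed 1 call. Of 5 measured at NF32, 1 passed as higher, also with the block (2.3% and 5.35% of all genes). In the list 2 had an unadjusted p under 0.05 (17.7% of all genes) and 4 a change above 0 (44.6% of all). The glutamate vesicle transporter gene slc17a7.S rose from 2.07 ± 0.91 to 13.3 ± 5.12 (0.68 ± 0.13, limma adjusted p = 0.0399), in the same arrays as slc32a1.S. Of the 6 fits without 1 array its call held only in the one without Ptf1a replicate 1. tlx1.L, named after its values were seen, read 9.77 ± 2.00 and 15.9 ± 3.12 (0.30 ± 0.10, limma adjusted p = 0.192). At NF36 none of 5 passed in limma, and none had an unadjusted p under 0.05 or passed with the block. slc17a7.S then read 0.58 ± 0.33 and 3.00 ± 3.35.

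No gene of the lists around Kirrel and Lhx proteins passed the threshold without the block, and some did with it. Lists this short can hold no call at shares of 2.3% and 4.17% of all genes. The counts therefore cannot show that these genes stayed unchanged. Kirrel proteins bind nephrin, the product of nphs1, at cell contacts. Of 9 genes of the kirrel and nephrin complex at NF32 none passed in limma, 3 had an unadjusted p under 0.05 (17.7% of all genes) and 2 were higher with the block (5.35% of all). Of 10 at NF36 none passed or had an unadjusted p under 0.05, and 1 was higher with the block (13.4% of all), nphs1.S. nphs1.S, named after its values were seen, read 40.3 ± 3.97 and 39.5 ± 2.79 at NF32 and 23.0 ± 8.95 and 37.5 ± 13.8 at NF36 (0.44 ± 0.22, limma adjusted p = 0.315, and 0.0313 with the block). Of 12 other LIM homeobox genes and cofactors at NF32 none passed in limma, 3 had an unadjusted p under 0.05 (17.7% of all genes), and the block called 3 higher and 1 lower (5.35% and 5.42% of all). lmo3.S had the smallest p (3.03 ± 0.23 to 10.7 ± 3.62, limma adjusted p = 0.0674). Of 13 at NF36 none passed, 2 had an unadjusted p under 0.05 (22.4% of all genes), and 1 was higher and 1 lower with the block (13.4% and 13.1% of all).

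**Figure D4:**
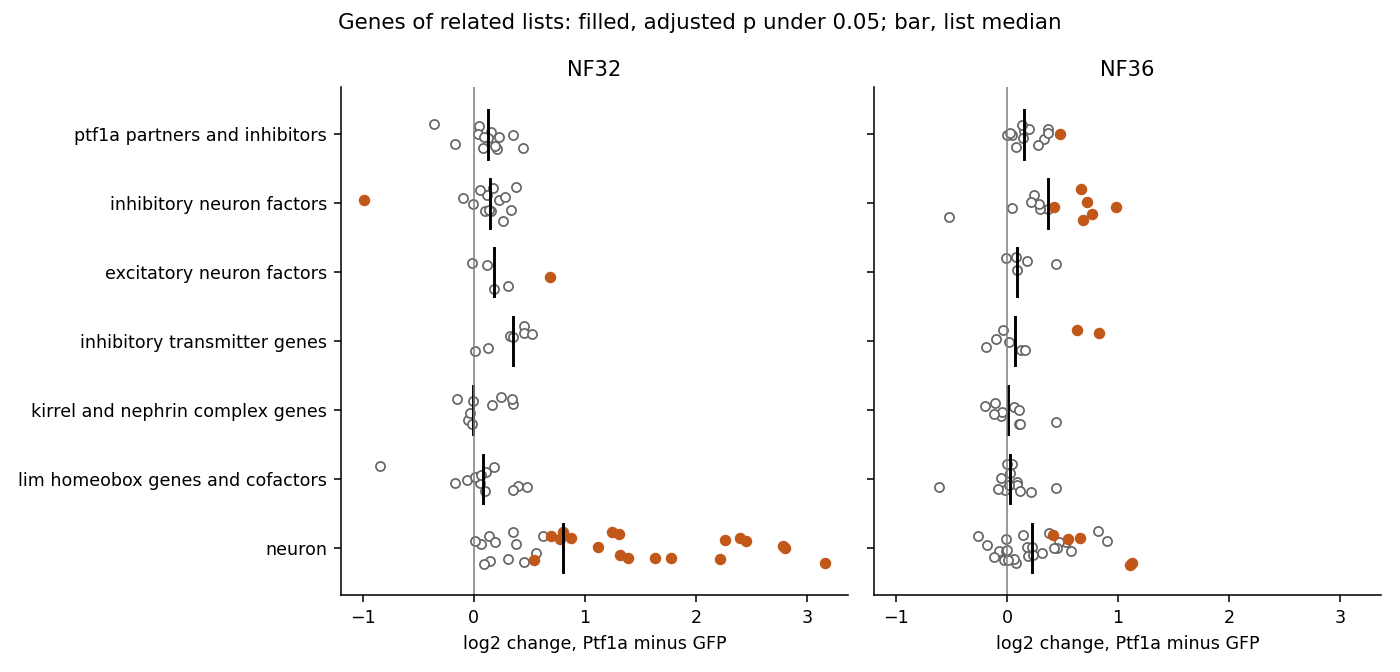
log2 change, Ptf1a minus GFP, of every measured gene of 6 related lists and of neuron markers at NF32 (left) and NF36 (right), 1 point per gene, filled where the limma adjusted p was under 0.05, with a bar at the list median. Neuron markers spread far above 0 at NF32, and 6 inhibitory neuron factors are filled above 0 at NF36. The .L and .S copies of a gene, such as those of dlx2 and neurod1, are separate points.

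Markers of neurons were higher in the same explants as the 4 genes, and their part in the members' changes was not tested. At NF32, 19 of 31 measured neuron markers, which were copies of 21 genes, rose and none fell. Of the 9260 genes with 1 symbol, 213 rose. With the block 23 rose and 0 fell (5.35% and 5.42% of all genes). The median of the neuron markers was 0.80, and their summed intensity was 847.3 to 1026.5 on GFP arrays and 3195.0 to 3546.6 on Ptf1a arrays. None of the 31 was at 0 on any array. stmn2.L rose from 3.63 ± 2.17 to 121 ± 15.3 and elavl4.L from 15.5 ± 5.08 to 200.3 ± 35.0. At NF36, 5 of 30 rose, 400 of 9594 genes rose in all, and with the block 10 were higher and 2 lower (13.4% and 13.1% of all). Their median was 0.23, their summed intensity was 580.2 to 684.6 on GFP arrays and 841.6 to 1387.7 on Ptf1a arrays, and 2 of the 30 were at 0 on at least 1 array. Leaving out 1 array gave 12 to 18 calls at NF32, with 12 without GFP replicate 2. At NF36 it gave 2 to 5, with 3 without GFP replicate 1 and 2 without GFP replicate 2, 3 or 4 or Ptf1a replicate 2. Of 14 neural progenitor markers 2 rose at NF32 (2.3% of all genes) and 7 with the block (5.35% of all). Without 1 array 0 to 2 rose, 0 without GFP replicate 2. At NF36 1 of the 14 rose (4.17% of all genes), and with the block 4 were higher and 1 lower (13.4% and 13.1% of all). At NF36 1 was higher without Ptf1a replicate 3 and 0 without any other array. sox1.S (0.52 ± 0.07) and zic1.S (0.79 ± 0.15) passed as higher at NF32, and sox3.S (0.43 ± 0.10) at NF36. sox2.L passed as lower at NF36, at a probe set other than the one counted (132.7 ± 17.7 to 75.1 ± 21.6, -0.73 ± 0.16, limma adjusted p = 0.0393). The sox3.S and sox2.L calls each held in 1 of 8 fits without 1 array.

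Endoderm markers were present in every group. None of 17 was at 0 on any array, and their summed intensity was 4826.6 to 5241.0 on GFP arrays and 4748.3 to 5198.4 on Ptf1a arrays at NF32, and 4428.5 to 4888.8 and 4356.0 to 5006.0 at NF36. The brightest marker, a2m.S, named after its values were seen, was the largest part of these sums. Its GFP and Ptf1a means were 2308.6 and 2606.3 at NF32 and 2063.3 and 2121.7 at NF36. The sums can therefore hide changes of the dimmer markers. At NF32 1 rose, sox9.L (0.60 ± 0.08), and 2 fell, foxa1.L (-0.69 ± 0.11) and gata6.L (-0.50 ± 0.08). With the block 2 rose and 6 fell. At NF36 3 rose, sox9.L, sox9.S and gata4.S, and 1 fell, hnf4a.S (3 and 5 with the block). Without 1 array 0 or 1 of the 17 fell at either stage. Over all genes 2.3% rose and 1.63% fell at NF32 (5.35% and 5.42% with the block). The shares at NF36 were 4.17% and 2.23% (13.4% and 13.1% with the block). In the embryo lhx1 and nphs1 are also expressed in the pronephros, the larval kidney. None of 9 pronephros markers passed in limma at either stage, with 5 at an unadjusted p under 0.05 at NF32 (17.7% of all genes) and 6 at NF36 (22.4% of all). With the block 4 were lower at each stage (5.42% and 13.1% of all) and 1 higher at NF36. Their summed intensity was 1021.1 to 1253.8 on GFP arrays and 883.9 to 965.0 on Ptf1a arrays at NF32, and 1220.7 to 1719.6 and 803.0 to 1245.6, which overlap, at NF36. Notochord, where lhx1 is active earlier, had 0 of 7 markers past the limma threshold at NF32 (2 at an unadjusted p under 0.05, 1 higher and 1 lower with the block) and 1 at NF36 (2 higher and 2 lower with the block), col9a1.L, which rose by 0.61 ± 0.10.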

How the data were processed

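RNA of 14 explant pools was measured on Affymetrix arrays. The deposited values are linear intensity values per probe set, with no log applied by the authors. PLIER is named in the submitters' processing notes. The sources used here give neither its settings nor the scaling and filters. The series text assigns NF36 to an older array design, yet probe set identifiers of both stages are of 1 design.

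Samples were grouped by their titles. The intensities were used as log2(value + 16), without further normalization. Linear models in limma 3.58.1 under R 4.3.3 (lmFit with eBayes, 2-sided) compared Ptf1a with GFP within each stage and tested the difference between stages in 1 fit of all 4 groups. The threshold was 0.05 after Benjamini-Hochberg adjustment across every probe set of the fit. The fits were tested on simulated data. Gene symbols came from the platform annotation. 5 of the 6 probe sets' gene IDs are in the RefSeq table, and that of ptf1a was not matched. No sequence or coordinate was used.

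The 4 genes and the lists were chosen with earlier results of these data known. 6 lists of related genes and 11 of cell type markers were used. A gene with several probe sets is counted by the brightest and named by the one with the smallest p. The genes named are the members and the 6 and 3 genes most like ptf1a and kirrel2.L. From each list up to 4 genes that passed, ordered by p, or else its top gene by p, were set aside for naming. Not all of these are named. Most other named genes are marked in the text. Lists are described by counts and medians.

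Per the series text, control and Ptf1a explants were collected from a common embryo batch in each experiment, and the labels do not say that the replicate number marks it. Departures of paired arrays from their group means correlated across probe sets with r of 0.711, 0.297 and 0.416 at NF32 and 0.765, 0.670, 0.717 and 0.639 at NF36. All 7 correlations exceeded 0.1, so the numbers were taken as pairs in the fits with the block. The main fits and those that left out 1 array did not use the pairing. Between unlike numbers, GFP replicate 3 with Ptf1a replicate 2 at NF32 also exceeded 0.1 (r = 0.257), so that limit did not settle the pairing at NF32. At NF36 the highest r between unlike numbers was 0.0219. Fits blocked on replicate number are quoted for members called within a stage, and where a member's call or a list's count changed. Further alternatives were leaving out each array in turn, array weights (statmod 1.5.0), a trended robust eBayes, a filter on probe sets below percentile 40, centring on the median, quantile normalization, and offsets of 1 and 64.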

Additional observations from a re-analysis of the deposited data

Results flagged for a closer look

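Among 24 checks of a group of 4 arrays for a sample far from the others, over the 6 probe sets on 2 scales, 2 stood out, where chance gives about 1 in 20. The ptf1a intensity of Ptf1a replicate 3 at NF36 was 319.4, while the other three Ptf1a arrays read 117.2 to 143.1. The kirrel2.L value of Ptf1a replicate 1 at NF36 was 5.94 as log2(value + 16), an intensity of 45.2, while the others read 79.3 to 87.2. Without the first array the ptf1a change at NF36 was 1.69, and without the second the kirrel2.L change was 1.12, and both passed.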

How the results depend on the processing

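The ptf1a call held at both stages under every alternative run. The replicate block changed no call of a member within a stage. Between stages it brought 3 past the threshold, at unchanged differences of -1.47 for ptf1a and -0.45 and -0.26 for the lhx1.L probe sets Xl2.54421.1.A1_at and Xl2.32655.1.S1_at. At NF32 an offset of 1 ended the kirrel2.L call (1.04, adjusted p = 0.0502) and brought the lhx1.L probe set Xl2.32655.1.S1_at past it (0.67). An offset of 64 ended those of lhx1.L at Xl2.54421.1.A1_at (0.18) and of slc32a1.S (0.12), and quantile normalization that of slc32a1.S (0.21). At NF36, changes of lhx1.L near 0 turned sign under quantile normalization (-0.0607 and -0.0456), median centring (-0.0229 and -0.0132) and array weights (-0.0011). The filter on dim probe sets left no value for lhx1.L and slc32a1.S. The cause of these shifts was not tested.

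Leaving out 1 array gave these ranges of change. At NF32 they were 0.65 to 0.91 for kirrel2.L, 0.38 to 0.50 for lhx1.L at Xl2.54421.1.A1_at and 0.38 to 0.41 for slc32a1.S. At NF36 they were 0.87 to 1.12 for kirrel2.L, -0.0202 to 0.0186 for Xl2.32655.1.S1_at, -0.0319 to 0.0635 for Xl2.54421.1.A1_at, -0.0236 to 0.0142 for Xl2.54421.2.A1_at and -0.0086 to 0.12 for slc32a1.S. The difference between stages ranged from -1.77 to -1.31 for ptf1a and from -0.41 to -0.28 for slc32a1.S.

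Of all probe sets, 449 were called higher and 274 lower at NF32, and 848 and 446 at NF36. The block gave 1149 and 958, and 2977 and 2554. Without dim probe sets 190 and 145 passed at NF32 and 490 higher at NF36, an offset of 64 gave 299 higher at NF32, and array weights 684 lower at NF36. Without 1 array the counts were 108 to 328 and 73 to 236 at NF32, and 311 to 863 and 97 to 481 at NF36. For the difference between stages, 97 were higher and 76 lower, 825 and 392 with the block, 45 lower with an offset of 1, 50 higher with an offset of 64, and 14 to 179 and 26 to 174 without 1 array. Intensities near the lower end of the arrays limit the lhx1.L and slc32a1.S values.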

Other observations

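On the 4 Ptf1a arrays of NF36 the genes did not keep 1 order. Replicate 1 had the lowest ptf1a (117.2) and kirrel2.L (45.2) values and the highest slc32a1.S value (5.5). GFP replicate 1 was likewise the lowest GFP array for ptf1a (25.5) and kirrel2.L (24.6). Within the numbered pairs the log2 change was 1.68, 1.69, 2.82 and 1.73 for ptf1a. For kirrel2.L it was 0.59, 1.04, 1.14 and 1.03. The ptf1a rise of pair 1 was thus close to those of pairs 2 and 4. Ptf1a replicate 1 also had the highest values of prph.S, elavl4.L and stmn2.L. They lay 1.80, 1.44 and 2.05 above the GFP mean on the log2(value + 16) scale. Ptf1a replicate 3, highest in ptf1a at 2.87, had 0.72, 0.64 and 0.54.

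Other cell type markers moved as follows in limma, against 2.3% of all genes with 1 symbol higher and 1.63% lower at NF32 and 4.17% and 2.23% at NF36. With the block the shares of all genes were 5.35% higher and 5.42% lower at NF32 and 13.4% and 13.1% at NF36. Of 12 heart markers 7 fell and none rose at NF32, with the same count without any 1 array. At NF36 1 rose (2 with the block, 0 or 1 without 1 array), gata4.S, which is also on the endoderm list. All 12 then had a change above 0 (49.4% of all genes) and 6 an unadjusted p under 0.05 (22.4% of all). The heart median was 0.82 at NF36, against -1.12 at NF32. Of 16 blood cell markers 11 fell and 1 rose at NF32, 12 fell with the block, and 6 to 10 fell without 1 array, with 6 without GFP replicate 1 or 2. At NF36 6 of 18 fell, 14 fell and 1 rose with the block, 12 fell without Ptf1a replicate 3 and 1 or 2 without any other array.

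Of 16 skeletal muscle markers none passed at NF32, 12 had an unadjusted p under 0.05 (17.7% of all genes), 15 had a change above 0 and 1 was higher with the block. Their median was 2.16, their summed intensity was 1705.6 to 5692.8 on GFP arrays and 7028.9 to 13815.0 on Ptf1a arrays, and 9 were higher without GFP replicate 3. At NF36 2 of 18 fell (3 with the block, 0 to 2 without 1 array), with a median of 0.52. Of exocrine pancreas markers 1 of 10 rose at NF32 (1 higher and 1 lower with the block) and 1 of 16 at NF36 (4 with the block), cpa1.L at both stages. The cpa1.L call held without 1 array in 2 of 6 fits at NF32, those without Ptf1a replicate 1 or 3, and in 8 of 8 at NF36. cpb1.S also passed as higher at NF36, at a probe set other than the one counted. There it went from 0.90 ± 0.38 to 5.2 ± 1.2 (0.32 ± 0.06, limma adjusted p = 0.0200), and the call held in 4 of 8 fits without 1 array. Of 20 epidermis markers 1 rose at NF32 (0 or 1 without 1 array). None of 2 and 4 retina markers passed at NF32 and NF36, and none had an unadjusted p under 0.05 or passed with the block.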
